A study of Mus musculus with 4 samples.

Results

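The genes described here are 43 genes of DNA replication and S phase, chosen by name from a table of 16416 genes: factors that license replication origins, factors of the replication fork, enzymes of nucleotide supply, and factors of replication-linked repair. All 43 had a row in the table, and all passed a minimum of 1 CPM (counts scaled to the size of the library) in every comparison. RNA was sequenced from cells grown out of mouse shoulder joint capsule, taken 1 week after the shoulder had been immobilized, and used at passage 2. The 4 libraries, 1 per group, came from wild-type C57BL6/J cells, from miR-26a -/- cells, from miR-26a -/- cells transfected for 24 h with 10 nM Silencer Negative Control siRNA, and from miR-26a -/- cells transfected for 24 h with a 10 nM double-stranded miR-26a mimic. They are called the wild-type, knockout, negative-control and mimic libraries. All cells came from immobilized shoulders, so no library shows the capsule without immobilization, and the sources used here do not say how many animals or cultures stand behind a library. The deposited table gives no level of the microRNA, and the knockout label therefore has no check on its target.

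A cell copies its DNA once per division. In G1 the origin recognition complex, with CDC6 and CDT1, loads the MCM2-7 helicase onto origins, a step called licensing, and in S phase CDC45 and the GINS complex turn that helicase on. Polymerase alpha with primase starts each strand, polymerases epsilon and delta extend it, and PCNA, a ring loaded by replication factor C, holds the polymerases on DNA. Transcription of many of these genes is driven by E2F factors when a resting cell re-enters the cycle, so that their RNA is commonly read as a sign of cycling cells. Fibroblasts that grow out of tissue divide in culture, and resident macrophages can divide too.

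Estimated counts summed to between 17598763 and 19392655 per library, and those of the 43 genes ran from 20 (Orc1, wild type) to 3907 (Pcna, mimic). Levels are deposited TPM (a unit per length that sums to the same total in each library). Ratios between libraries are log2 ratios of counts scaled by TMM, each followed in parentheses by its exact 95% binomial interval, which covers counting error only. With 1 library per group there is no replicate check and no p-value, and every direction compares 2 libraries, not 2 conditions. A gene is said to be 2-fold higher or lower where the ratio is at least 2-fold and the interval excludes 0. The cells are labelled synovial fibroblasts. All 15 fibroblast markers of the list used had counts above 0 in every library, but so had all 20 macrophage markers, and summed macrophage markers (24585.33 to 36184.06 TPM) were of the same order as summed fibroblast markers (12215.29 to 28425.08 TPM). In such bulk RNA, more cells of a type and more RNA per cell cannot be told apart.

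Pcna was the most abundant of the 43 genes and Orc1, the large subunit of the origin recognition complex, the least abundant in every library. Pcna stood at 198.55 TPM in the wild-type, 365.97 TPM in the knockout, 351.27 TPM in the negative-control and 395.79 TPM in the mimic library. Orc1 stood at 0.8, 1.77, 2.21 and 2.2 TPM in the same order. The median over the 43 genes was 12.27 TPM for wild type, against 19.74, 18.95 and 18.19 TPM for the 3 knockout libraries. The wild-type library thus stood apart from the other 3, while those lay close together. The sources used here do not say whether the 3 knockout libraries share a culture. They cannot be counted as separate comparisons with wild type. On scaled CPM the wild-type library was the lowest of the 4 for 42 of the 43 genes, against 40.3% of all 12876 genes measured in any library. The exception was Pole2, for which the negative-control library was lowest. Among the 3 knockout libraries the highest value of a member was at most 1.31 times the lowest, with a median of 1.13 over the 43 genes and 1.17 over all measured genes.

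**Figure D1:**
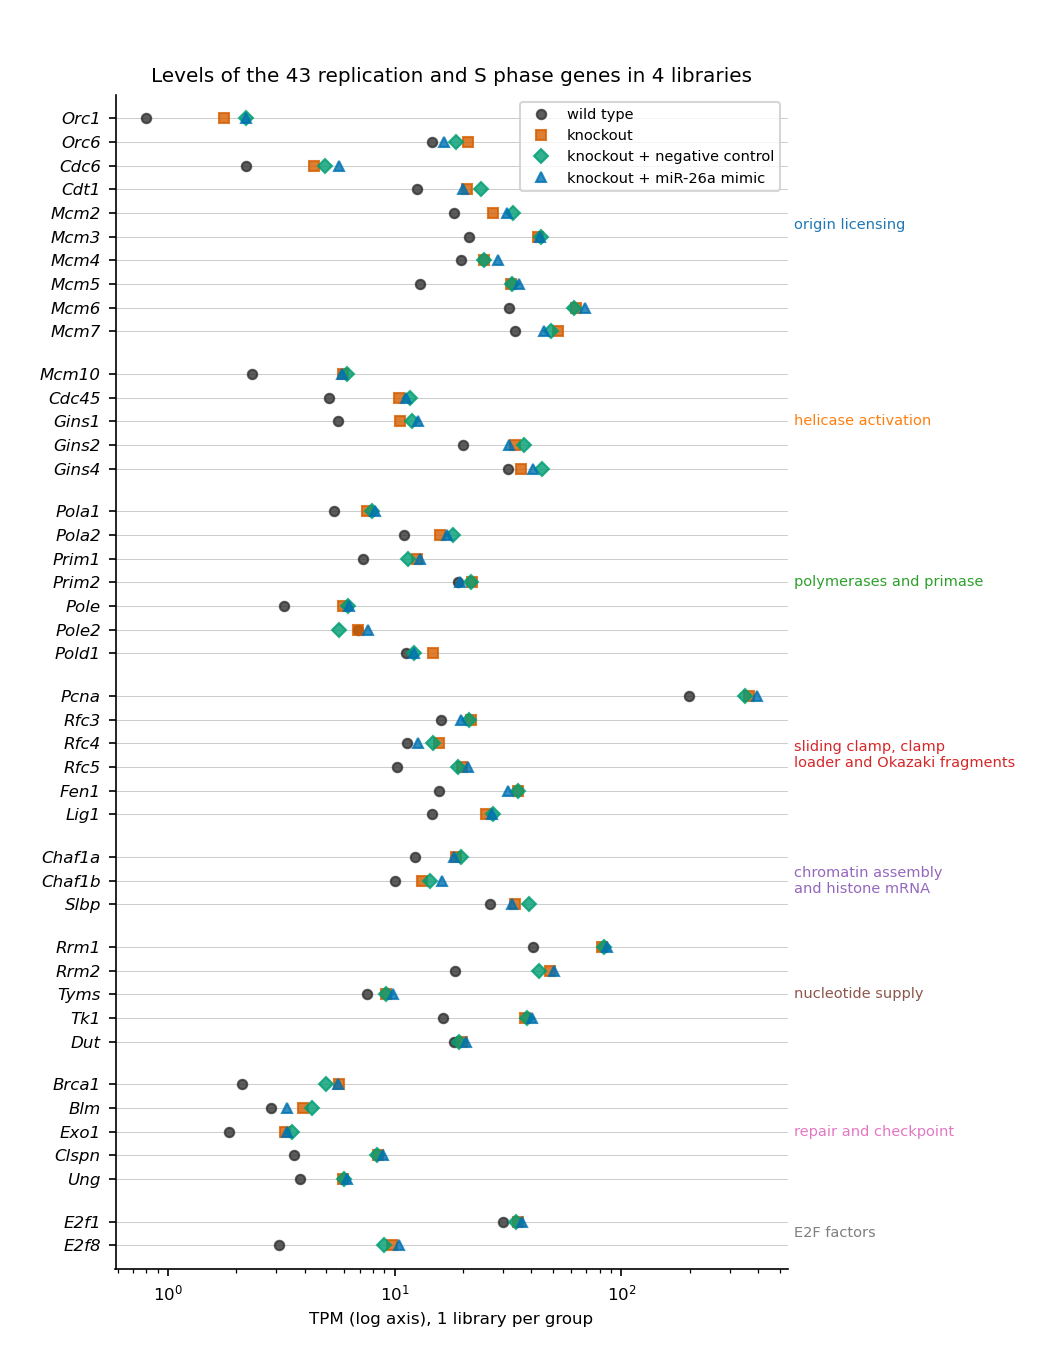
Levels of the 43 genes in TPM on a log axis, grouped by role, with 1 point for each of the 4 libraries. The wild-type point (black circle) lies to the left of the other 3 for nearly every gene, and Pcna, at 198.55 to 395.79 TPM, stands far to the right of the rest.

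The first comparison sets the knockout against the wild-type library and asks how cells lacking miR-26a differ from wild-type cells. All 43 genes had a ratio above 0, 42 of them with an interval above 0, and 17 passed the 2-fold limit upward. Over all 12803 measured genes 51.2% had a ratio above 0, 32.6% had an interval above 0, 5.91% were 2-fold higher and 7% were 2-fold lower, and no member was 2-fold lower. The median log2 ratio of the 43 genes was 0.86, against 0.01 for all measured genes. The range ran from Pole2 at 0.21 to E2f8 at 1.88, and 31 members reached a 1.5-fold excess, against 11.3% of all measured genes. The ratio was not ordered by abundance: over the 43 genes Spearman's rho of mean TPM and log2 ratio was -0.04, a description of genes that share the same libraries.

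**Figure D2:**
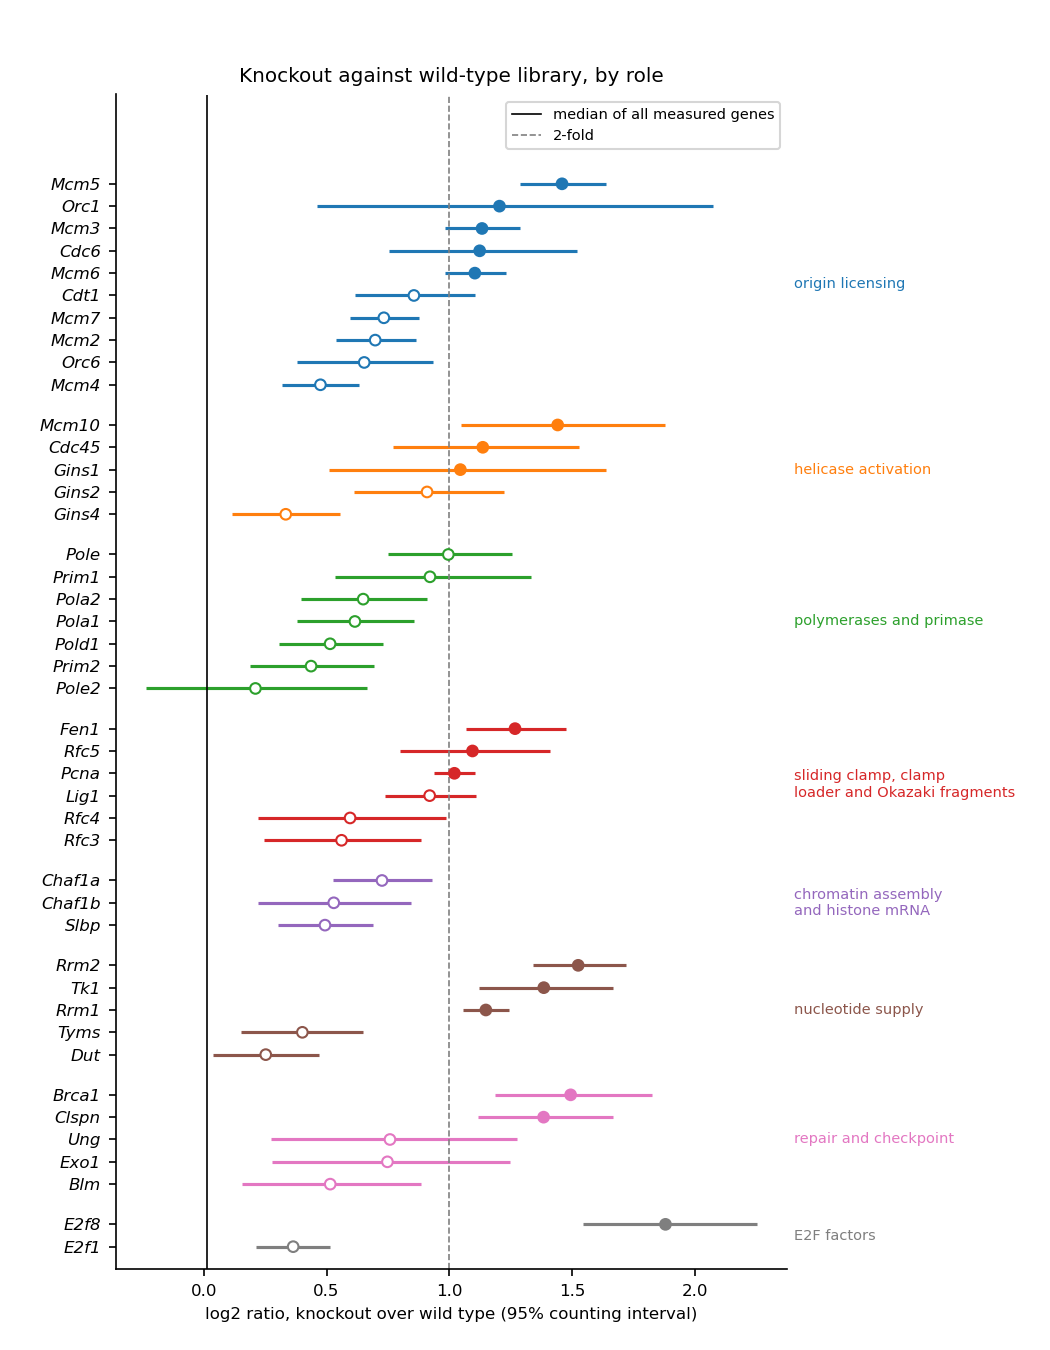
Log2 ratio of the knockout to the wild-type library for each of the 43 genes, by role and in falling order within a role, with lines for the 95% counting interval; filled points are the 17 genes that were at least 2-fold higher. All points lie to the right of the median of all measured genes (0.01, black line), with no polymerase or primase gene past the dashed 2-fold line.

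Origin licensing genes were higher in the knockout library for all 10 members, 5 of them at least 2-fold, with a median of 0.98. The 6 subunits of the MCM helicase form 1 ring, but their ratios were not alike. Mcm5 (Entrez Gene 17218) stood at 12.98, 32.68, 32.92 and 35.42 TPM in the wild-type, knockout, negative-control and mimic libraries, and its knockout to wild-type log2 ratio was 1.46 (1.29 to 1.64). Mcm4 stood at 19.55, 24.85, 24.85 and 28.58 TPM, with a ratio of 0.47 (0.32 to 0.63). Mcm6, on average the most abundant licensing gene, had 31.81, 62.86, 61.95 and 69.31 TPM, with a ratio of 1.10 (0.98 to 1.23). The interval of Mcm5 thus lay wholly above those of Mcm4 and Mcm6, and also above those of Mcm2, at 0.70 (0.54 to 0.86), and Mcm7, at 0.73 (0.59 to 0.88). Mcm3 was at 1.13 (0.98 to 1.29). The Mcm7 transcript was 2.61 times as abundant as that of Mcm5 in the wild-type library and 1.60 times in the knockout library, on TPM. Of the loading factors, Orc1 and the ATPase Cdc6 were 2-fold higher, at 1.20 (0.46 to 2.08) and 1.12 (0.75 to 1.52). Cdt1, which brings the helicase to the origin, stood at 0.86 (0.61 to 1.11), and the small origin recognition subunit Orc6 at 0.65 (0.38 to 0.94).

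Factors that turn the helicase on were 2-fold higher for 3 of 5 members, with a median of 1.05. Mcm10, an initiation factor separate from the ring, had 2.34 TPM in the wild-type library against 5.89, 6.13 and 5.88 TPM in the others, a knockout to wild-type ratio of 1.44 (1.05 to 1.88). Cdc45 stood at 1.14 (0.77 to 1.53). The 3 GINS subunits listed act in 1 complex, but Gins1 was at 1.05 (0.51 to 1.64), Gins2 at 0.91 (0.61 to 1.22) and Gins4 at 0.33 (0.12 to 0.55), the last with an interval below that of Gins2. Gins4 was the most abundant of the 3 in every library, at 31.5, 36.1, 44.44 and 40.61 TPM, and was the member of this role with the smallest ratio.

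Polymerase and primase genes were above 0 for all 7 members, but none reached 2-fold. Their median was 0.62. Pole, the catalytic subunit of polymerase epsilon, lay just below the limit with a 1.995-fold ratio, and was at 3.25, 5.94, 6.25 and 6.3 TPM in the 4 libraries in the same order as before. Its partner Pole2 had the smallest ratio of all members, 0.21 (-0.24 to 0.66), on 80 counts for wild type against 92 for knockout, and its TPM of 6.91 and 6.9 were level. Pole2 shares 177 bases of exon with the protein-coding gene Gm49384 on the same strand, so its values are uncertain. The other 5 were Prim1, the catalytic primase subunit, at 0.92 (0.53 to 1.33), Pola2 at 0.65 (0.40 to 0.91), Pola1 at 0.62 (0.38 to 0.86), Pold1, the catalytic subunit of polymerase delta, at 0.51 (0.30 to 0.73), and Prim2 at 0.44 (0.19 to 0.69). Prim2, the large primase subunit, was the most abundant of this role on average, at 18.96, 21.96, 21.73 and 19.48 TPM, so that its wild-type and mimic values nearly met.

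The clamp, its loader and the enzymes that join Okazaki fragments were 2-fold higher for 3 of 6 members, with a median of 0.97. Fen1, the nuclease that trims flaps between fragments, had 15.63, 34.99, 34.84 and 31.66 TPM and the largest ratio, 1.27 (1.07 to 1.48). Pcna reached 1.02 (0.94 to 1.10), close to the limit. Lig1, the ligase that seals the fragments, was at 0.92 (0.74 to 1.11). Of the clamp loader subunits, Rfc5 stood at 1.09 (0.80 to 1.41), while Rfc4 stood at 0.60 (0.22 to 0.99) and Rfc3 at 0.56 (0.25 to 0.89). Exons of Rfc5 and Rfc4 overlap those of Wsb2 and Eif4a2 on the opposite strand, by 499 and 186 bases, so their values are uncertain. Rfc3 had 15.94 TPM for wild type, against 21.7, 21.26 and 19.69 TPM elsewhere.

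Genes of chromatin assembly behind the fork were higher in the knockout library without reaching 2-fold. Chaf1a and Chaf1b, subunits of the chromatin assembly factor that places new histones on replicated DNA, had ratios of 0.73 (0.53 to 0.93) and 0.53 (0.22 to 0.85). Slbp, which binds the stem-loop of histone mRNA, was the most abundant of the 3, at 26.35, 33.88, 39.29 and 32.84 TPM, with a ratio of 0.49 (0.30 to 0.69).

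Of the 5 nucleotide supply genes, 3 were 2-fold higher and 2 had small ratios, with a median of 1.15. Ribonucleotide reductase makes deoxynucleotides, and its small subunit Rrm2, whose level limits the enzyme in S phase, had 18.43, 48.49, 43.35 and 50.2 TPM with a ratio of 1.53 (1.34 to 1.72). Its large subunit Rrm1 had 40.56, 82.28, 83.65 and 86.44 TPM with a ratio of 1.15 (1.06 to 1.24), an interval below that of Rrm2. On TPM, Rrm2 stood at 0.454 of Rrm1 in the wild-type library and at 0.589, 0.518 and 0.581 in the knockout, negative-control and mimic libraries. Thymidine kinase, Tk1, the salvage enzyme of dividing cells, was at 1.39 (1.12 to 1.67). Thymidylate synthase, Tyms, the other route to thymidine nucleotides, was at 0.40 (0.15 to 0.65), with estimated counts that were not whole, unlike the other 42 members. Dut, which breaks down dUTP, stood at 18.19, 19.74, 19.16 and 20.67 TPM, a ratio of 0.25 (0.04 to 0.47).

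Of the repair and checkpoint genes 2 of 5 were 2-fold higher. Brca1, which acts in homologous recombination, had 2.13, 5.67, 4.96 and 5.63 TPM with a ratio of 1.49 (1.19 to 1.83). Clspn, the claspin adaptor of the replication checkpoint and on average the most abundant of this role, had 3.59, 8.41, 8.36 and 8.9 TPM with a ratio of 1.38 (1.12 to 1.67). Both had the wild-type library well below the other 3. The helicase Blm had 2.86, 3.93, 4.3 and 3.34 TPM with a ratio of 0.51 (0.16 to 0.89). The nuclease Exo1 and the uracil glycosylase Ung stood at 0.75 (0.28 to 1.25) and 0.76 (0.27 to 1.28).

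The E2F factors went apart in size. E2f8, an atypical E2F that represses E2F target genes and is itself made in S phase, had 3.1, 9.7, 9 and 10.39 TPM, a ratio of 1.88 (1.54 to 2.25) and the largest of all members. E2f1, an activating E2F, had 29.87, 35.06, 34.28 and 36.56 TPM and a ratio of 0.36 (0.21 to 0.52). The intervals of these factors did not overlap.

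Other genes of the same processes were higher in part. Over all 12803 measured genes, 5.91% were 2-fold higher and 7% 2-fold lower in the knockout library, which holds beside each count that follows. Of 77 other replication genes, all measured, 15 were 2-fold higher in the knockout library and none 2-fold lower, with a median of 0.44. Among the largest ratios were those of Gmnn, which encodes geminin, an inhibitor of CDT1, at 1.78 (1.43 to 2.17), of the topoisomerase Top2a at 1.58 (1.47 to 1.69), and of the cohesin acetyltransferase Esco2 at 1.53 (1.10 to 2.00). Of 21 genes of E2F factors, pocket proteins, their partners and S phase cyclins, 4 passed the 2-fold limit upward and 0 downward, and the median was 0.32. These 4 were the cyclins Ccna2 at 1.40 (1.22 to 1.58) and Ccne2 at 1.14 (0.85 to 1.44), and the transcription factors E2f2 at 1.22 (0.91 to 1.56) and Mybl2 at 1.22 (0.87 to 1.59). All 25 G2/M markers, genes of mitosis, were 2-fold higher, with a median of 1.33. The largest ratios there were those of Cdca3 at 1.62 (1.38 to 1.89), of the mitotic kinases Aurkb at 1.60 (1.30 to 1.93) and Bub1 at 1.60 (1.30 to 1.92), and of Top2a, which is in both lists. The difference between the lists was not tested.

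Markers of several cell types also differed between the knockout and wild-type libraries, some upward and some downward. All 20 macrophage markers had ratios above 0, against 51.2% of all measured genes. Of the 20, 11 were at least 2-fold higher, against 5.91% of all, and their median log2 ratio was 1.08. Their summed level was 24585.33 TPM in the wild-type against 36184.06, 35035.64 and 34998.99 TPM in the knockout, negative-control and mimic libraries. Lyz2 alone made up 14912.62 TPM of the wild-type sum. Of the most abundant, Lyz2 was at 0.49 (0.48 to 0.50), C1qb at 0.97 (0.94 to 1.00) and C1qc at 0.96 (0.93 to 1.00). Of 15 fibroblast markers 14 had ratios below 0, against 6248 of 12803 measured genes. Of the 15, 8 were 2-fold lower, against 7% of all, and their median was -1.05. Summed levels of these markers were 28425.08, 12735.61, 12215.29 and 14238.71 TPM. The most abundant were the matrix genes Fn1 at -0.92 (-0.93 to -0.92), Col1a1 at -0.94 (-0.95 to -0.93) and Col1a2 at -1.05 (-1.06 to -1.04). Summed adipocyte markers were at 273.01 TPM in the wild-type and at 62.84 to 66.17 TPM in the other libraries, and Schwann cell markers at 282.28 and at 99.68 to 105.39 TPM. Synovial lining markers summed to between 94.75 and 148.23 TPM, skeletal muscle markers to between 4.53 and 13 TPM and endothelial markers to between 8.81 and 11.55 TPM. Of the 4 lymphocyte markers with a row at least 2 had a count of 0 in each library, and their sum was at most 0.32 TPM. The part of these cell types in the ratios of the replication genes was not tested, and which cells the replication transcripts came from cannot be told from bulk RNA.

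**Figure D3:**
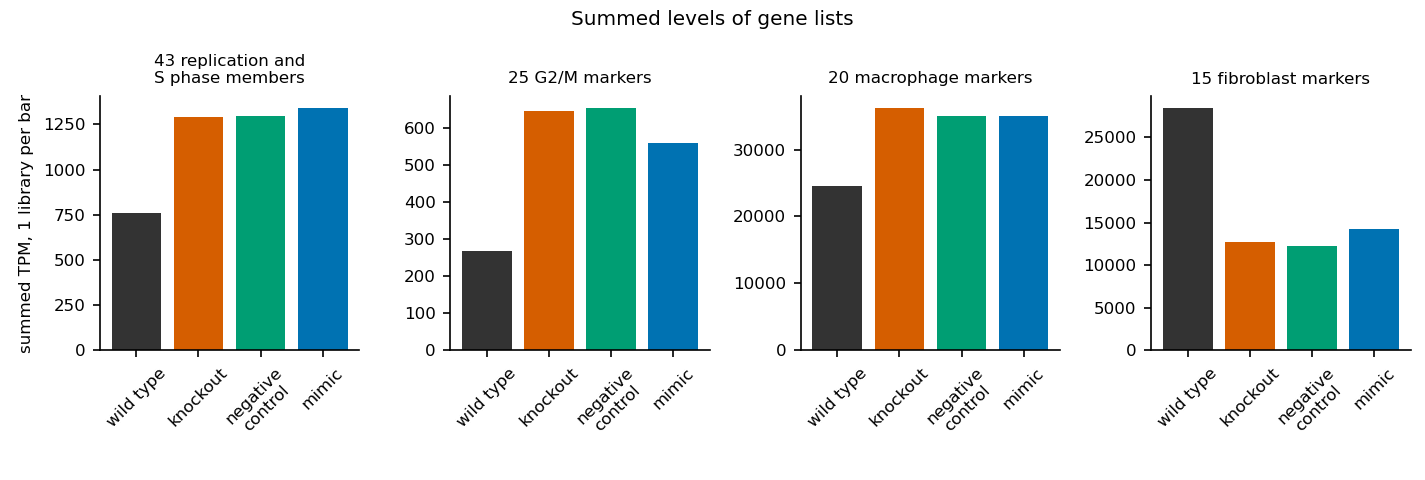
Summed TPM of 4 gene lists in each of the 4 libraries, 1 library per bar, each axis starting at 0. The replication genes (759.51 TPM in the wild-type and 1291.22 to 1340.61 TPM in the other libraries), the G2/M markers and the macrophage markers are lowest in the wild-type library, where the fibroblast markers are highest.

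Transfection of the negative control left the replication genes near their level in untransfected knockout cells. Of the 43 genes 18 had a ratio above 0, against 50.6% of all measured genes, and 25 had one below 0, with a median of -0.02, and none was 2-fold higher or lower, against 0.295% and 0.718% of 12532 measured genes. The interval was above 0 for 3 of the 43 genes and below 0 for 3, against 16.4% and 17% of all measured genes, so intervals off 0 were no more common among the members than among all genes. Mcm2, Gins4 and Slbp were higher in the negative-control library, at 0.27 (0.14 to 0.40), 0.25 (0.06 to 0.45) and 0.18 (0.01 to 0.34). Pold1, Rrm2 and Pcna were lower, at -0.30 (-0.49 to -0.10), -0.20 (-0.34 to -0.06) and -0.11 (-0.17 to -0.04). These ratios are small beside those between knockout and wild type.

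The mimic comparison asks whether giving miR-26a back to knockout cells alters these transcripts, and it is given with both possible references, which share the mimic library. Replication genes as a list were level with either reference. Against the negative control 23 of 43 were above 0 and 20 below 0, where 48.5% and 51.5% of all measured genes were, with a median of 0.03, and none was 2-fold higher or lower, against 0.855% and 0.352% of 12512 measured genes. Against untransfected knockout cells 26 were above 0 and 17 below 0, where 50.4% and 49.6% of all were, with a median of 0.03, and again none was 2-fold higher or lower, against 0.263% and 0.471% of 12536 measured genes. The median of all measured genes was -0.01 with the negative control and 0.00 with untransfected cells as reference. In the mimic library the summed level of the 43 genes, 1340.61 TPM, stayed far above the 759.51 TPM of wild-type cells.

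**Figure D4:**
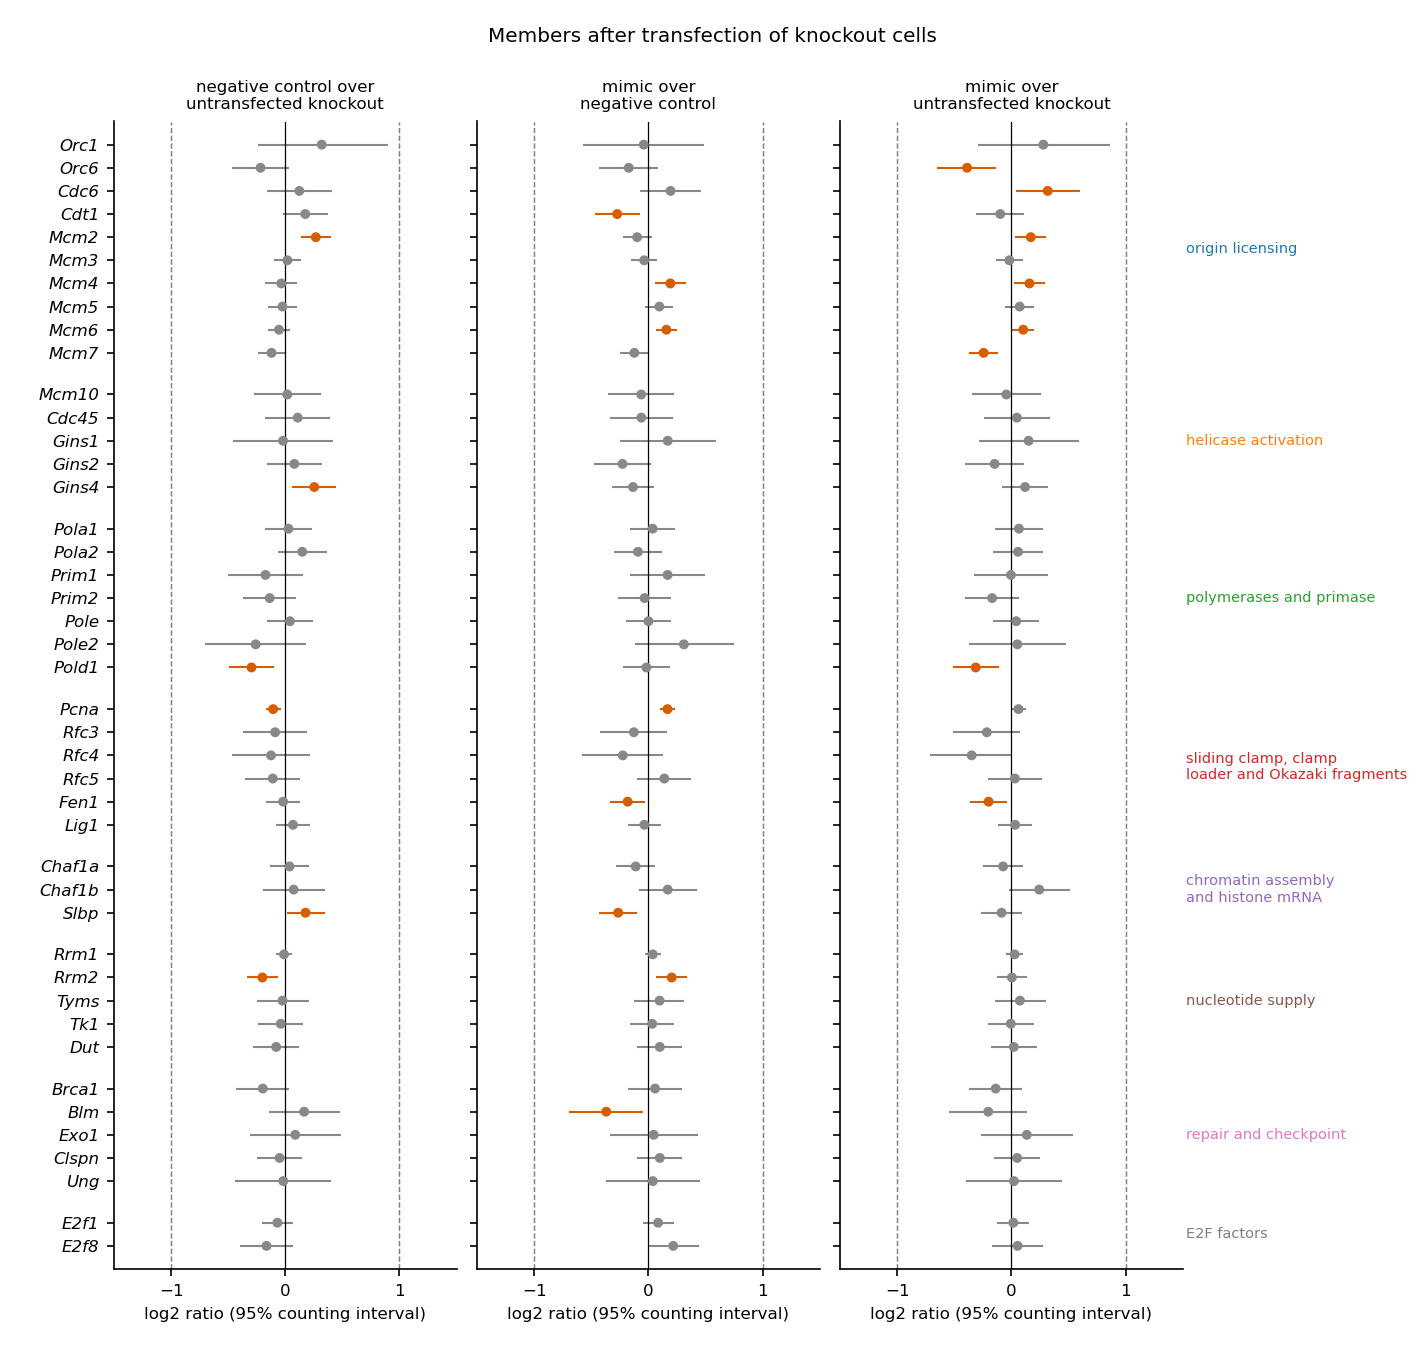
Log2 ratios of the 43 genes after transfection, with the 95% counting interval, for negative control over untransfected knockout, mimic over negative control and mimic over untransfected knockout. Orange marks intervals that exclude 0; no point reaches the dashed 2-fold lines, and the points lie on both sides of 0 in each panel.

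Intervals off 0 were no more common among the members than among all genes in the mimic comparisons either. Against the negative control 4 of the 43 lay above 0 and 4 below, where 19.1% and 18.8% of all measured genes did, and against untransfected cells 4 lay above and 4 below, where 17.3% and 17.4% of all did. The members concerned are given by their values only. The helicase subunits Mcm4 and Mcm6 were higher in the mimic library, Mcm4 at 0.19 (0.06 to 0.33) against the negative control and 0.16 (0.02 to 0.30) against untransfected cells, and Mcm6 at 0.16 (0.06 to 0.25) and 0.10 (0.01 to 0.20). Fen1 was lower, at -0.18 (-0.34 to -0.03) and -0.20 (-0.36 to -0.04). Against the negative control alone, Rrm2 was higher at 0.20 (0.07 to 0.34) and Pcna at 0.17 (0.10 to 0.23), while Blm, Cdt1 and Slbp were lower at -0.37 (-0.69 to -0.05), -0.27 (-0.47 to -0.08) and -0.26 (-0.43 to -0.10). The same negative-control library, set against untransfected knockout cells, had Rrm2 and Pcna below 0 and Blm, Cdt1 and Slbp above 0. With the mimic library against untransfected cells, Rrm2 was at 0.00 (-0.13 to 0.14) and Pcna at 0.06 (-0.004 to 0.13). Against that reference Blm, Cdt1 and Slbp were at -0.20 (-0.54 to 0.13), -0.10 (-0.31 to 0.11) and -0.09 (-0.26 to 0.09). There Cdc6 was highest at 0.32 (0.04 to 0.60) and Mcm2 at 0.17 (0.03 to 0.31), and Orc6, Pold1 and Mcm7 were lower at -0.39 (-0.65 to -0.13), -0.31 (-0.52 to -0.11) and -0.24 (-0.37 to -0.12). Against untransfected cells, subunits of the MCM ring were thus among those higher and among those lower, which is not read as a result about the ring.

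Mitotic genes were mostly a little below 0 in the mimic comparisons. All 25 G2/M markers had ratios below 0 against the negative control, where 51.5% of all measured genes had, and 16 of the 25 had an interval below 0, where 18.8% of all had. Against untransfected cells 24 of 25 were below 0, where 49.6% of all were. Their medians were -0.24 and -0.26. The ratios ran from -0.41 to -0.05 against the negative control and from -0.44 to 0.07 against untransfected cells. Cdca3, a mitotic entry factor, had 14.99, 43.19, 43.81 and 33.16 TPM in the wild-type, knockout, negative-control and mimic libraries. Its mimic ratios, -0.39 (-0.58 to -0.20) and -0.43 (-0.62 to -0.24), lay further below 0 than these medians. Other replication genes resembled the members, with a median of -0.02 and 34 of 77 above 0 when set against the negative control, and -0.01 and 37 of 77 when set against untransfected cells. The difference between replication and mitotic genes was not tested, since it would rest on 1 library of each kind.

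**Figure D5:**
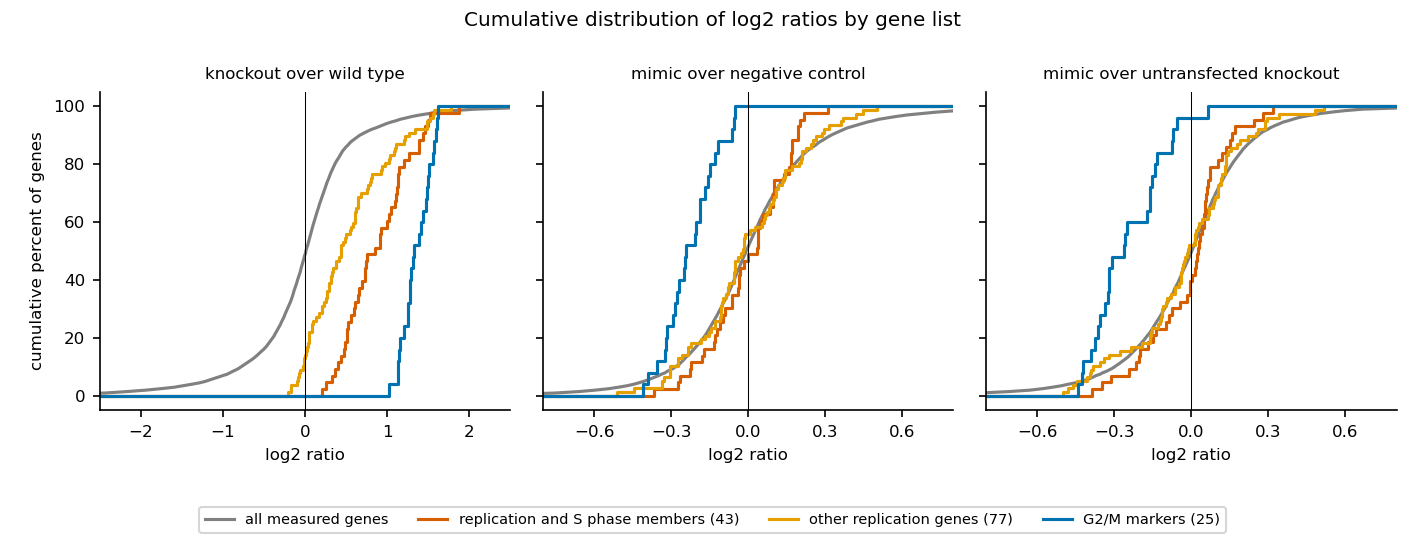
Cumulative percent of genes by log2 ratio for all measured genes, the 43 members, 77 other replication genes and 25 G2/M markers. In the knockout to wild-type panel all lists lie to the right of all genes; in both mimic panels the members follow all genes (medians of 0.03 and 0.03), whereas the G2/M markers lie to the left (medians of -0.24 and -0.26).

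Direct pairing of miR-26a with these transcripts was looked for in their 3' untranslated regions (3' UTRs), because a microRNA usually lowers transcripts that hold a match to its seed. The sense strand of the mimic is identical to mouse miR-26a-5p in RefSeq (GRCm38.p6), which is encoded at chr9:119031811-119031832 and chr10:126995543-126995564, both on the plus strand. It is shown with its seed, bases 2 to 8, in capitals.
miR-26a mimic, sense strand: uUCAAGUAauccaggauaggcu
The site is TACTTGA. A 3' UTR was annotated for all 43 members in GENCODE M21 (GRCm38), and 2 of them, Gins2 and Chaf1a, held a site, 4.65% against 12.2% of 12326 measured genes. The median length of the longest 3' UTR was 568 bases for the members and 1222 bases for the measured genes. The sites are shown with 11 bases on either side and the site in capitals, since these are the only members with a match.
Gins2 site, chr8:120581024-120581030, minus strand: caaagcttgcgTACTTGAaagagtacaga
Chaf1a site, chr17:56068021-56068027, plus strand: taaacatactcTACTTGAgccctctgtct
The 3' UTRs of GENCODE run further than the RefSeq gene bounds on the same build: all 7 bases of the Gins2 site and the last of the 7 bases of the Chaf1a site lie outside those bounds. The Gins2 site is followed by A, which makes it the 8-base form, and the Chaf1a site is not. Gins2 stood at 19.95, 34.05, 37.29 and 31.9 TPM in the wild-type, knockout, negative-control and mimic libraries, with mimic ratios of -0.23 (-0.48 to 0.02) against the negative control and -0.15 (-0.41 to 0.11) against untransfected cells. Chaf1a stood at 12.27, 18.56, 19.53 and 18.19 TPM, with mimic ratios of -0.11 (-0.28 to 0.06) and -0.07 (-0.25 to 0.10). All 4 intervals held 0, so a lowering was not detectable at this depth. Exons of these genes overlap exons of Gse1 and Ubxn6 on the opposite strand, by 2758 and 2542 bases, and their values are uncertain because the sources used here do not say whether counting used strand.

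The promoters of the members were searched for E2F motifs, since E2F factors are known regulators of replication genes. The motifs were TTCCCGC and, differing in its middle letters, TTCGCGC, as well as TTGGCGC and also the form TTGCCGC, all searched on both strands. Each window ran from 250 bases before to 50 after a start listed in RefSeq (GRCm38.p6). A listed start was not always at the outer bound of the gene: the windows of Orc1, Cdc6, Dut, E2f1 and E2f8 lay wholly inside the gene. So did some of the windows of Fen1, Lig1 and Mcm7, which had further listed starts. The table held 40 promoters of 36 members, and Mcm4, Gins1, Gins2, Gins4, Prim2, Pole and Exo1 had none in it. A motif was found in 25 of the 40 promoters, 62.5%, against 16.1% of 13182 promoters of measured genes and 9.6% of all 32851 promoters. Median GC content was 61.3%, 60.7% and 52.7%, in the same order. At least 2 matches were found in 25% of member promoters, 2.2% of promoters of measured genes and 1.2% of all, where overlapping matches on opposite strands count separately. The 23 members with a motif had a median knockout to wild-type log2 ratio of 0.92, and the 13 with a promoter and no motif, among them Pcna, Tk1 and Mcm10, had a median of 0.70. E2f1 and Dut are counted among the 13, but the sequence before the outer bound of these genes was not searched. The matches of Fen1 and Lig1 lay only in windows inside the gene. The Mcm10 window ends in ttggcg, the start of TTGGCGC, and a match running past its edge would have been missed. A match is a run of letters and does not show binding.

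Promoters of 3 members are shown, those of the helicase subunits Mcm5, with the largest ratio among licensing genes, and Mcm6, with the most matches of any member promoter, and that of E2f8, with the largest ratio of all. Capitals mark the motif matches, and each window is written on the strand of its gene. They lie at chr8:75109259-75109558 on the plus strand, chr1:128359656-128359955 on the minus strand and chr7:48881547-48881846 on the minus strand (GRCm38.p6). The E2f8 window lies wholly inside the gene, as given above.
Mcm5 promoter: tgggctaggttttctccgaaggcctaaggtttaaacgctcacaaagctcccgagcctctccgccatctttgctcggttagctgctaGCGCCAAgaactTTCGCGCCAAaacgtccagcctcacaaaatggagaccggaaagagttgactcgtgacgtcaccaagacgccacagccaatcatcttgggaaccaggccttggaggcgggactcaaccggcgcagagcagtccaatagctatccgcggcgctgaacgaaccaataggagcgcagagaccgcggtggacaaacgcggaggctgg
Mcm6 promoter: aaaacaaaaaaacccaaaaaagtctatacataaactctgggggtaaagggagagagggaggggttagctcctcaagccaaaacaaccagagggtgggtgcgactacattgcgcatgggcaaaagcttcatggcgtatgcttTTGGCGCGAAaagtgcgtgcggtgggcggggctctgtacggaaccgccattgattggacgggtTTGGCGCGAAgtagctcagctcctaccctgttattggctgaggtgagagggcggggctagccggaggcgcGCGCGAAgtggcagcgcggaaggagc
E2f8 promoter: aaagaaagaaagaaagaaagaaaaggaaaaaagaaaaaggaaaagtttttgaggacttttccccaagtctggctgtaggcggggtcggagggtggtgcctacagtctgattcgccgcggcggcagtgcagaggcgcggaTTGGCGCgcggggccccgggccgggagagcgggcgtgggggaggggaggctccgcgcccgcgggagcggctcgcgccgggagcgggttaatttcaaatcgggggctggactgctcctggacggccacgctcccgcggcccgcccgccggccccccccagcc
The Mcm5 window holds 3 matches and the Mcm6 window 5, several of them overlapping on opposite strands, and the E2f8 window holds 1. Mcm5, Mcm6 and E2f8 were all 2-fold higher in the knockout library, as given above with their values, and Mcm10, with no full match in its window, was so as well.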

How the data were processed

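The 4 RNA samples gave 1 library per group, and the labels set the groups. FastQC, HISAT and Bowtie2 were used with the builds GRCm38.p6 and mm10, per the submitters' processing notes, which state no version. The tool that estimated the counts, its annotation and its strand setting: not given in the sources used here. Each estimated count, as deposited by the authors, is a number of reads per gene that is not scaled by library size. The file headers name the other deposited values of the authors TPM, a unit defined so as to sum to the same total in each library. Their table of pairwise comparisons was not used.

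Counts were scaled with edgeR 4.0.16 TMM factors in R 4.3.3, and log2 ratios were computed with Python 3.11.15 with a prior count of 1, scaled to each library. Genes counted as measured had at least 1 CPM in either library, and 2-fold calls also required an exact conditional binomial (Clopper-Pearson) 95% interval that excludes 0, from counts rounded to whole numbers. Reads are not independent molecules, so intervals cover counting error only. Simulated counts with known ratios were used to test the script. Alternatives were DESeq2 1.42.0 size factors, total-count scaling, deposited TPM with a pseudocount of 0.1, other filters, a prior of 5 counts and a 1.5-fold limit. The members, the other gene lists and the tests were chosen with earlier results of these data known. Every member is named. Values in all libraries are given for the most abundant member and those with the highest and lowest knockout to wild-type ratio in each role, and for members with a miR-26a site. Of other lists the 4 genes with the largest absolute ratio are named (of marker lists the 3 most abundant), except that the smaller marker lists are given only as sums and that 1 of the other replication genes is not reported here.

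The 3' UTRs are those of basic protein-coding transcripts of GENCODE M21 (GRCm38). All 43 members matched RefSeq by Entrez identifier. Exons of 11 members overlap those of another protein-coding gene: Orc6, Mcm7, Cdc45, Gins2, Pole2, Rfc4, Rfc5, Fen1, Lig1, Chaf1a and Tk1. Reads of overlapping genes may be shared, so the values of all 11 are uncertain.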

Additional observations from a re-analysis of the deposited data

How the results depend on the processing

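The 17 members called 2-fold higher in the knockout library numbered between 12 and 18 under other scalings, filters and priors. They numbered 12 on deposited TPM, where Cdc6, Mcm6, Gins1, Pcna and Rfc5 stood just below 2-fold and the median of all genes shifted by -0.12 on the log2 scale, 16 with a prior of 5 counts, where Gins1 stood at 0.98, and 18 with total-count scaling, where Pole stood at 1.03. At a 1.5-fold limit the number was 31, against 11.3% of all measured genes. No setting put a member 2-fold lower. The median of the members in this comparison lay between 0.76 and 0.89 under all settings. On TPM 42 of 43 members were above 0, with Pole2 the exception. In the comparisons after transfection no member was called under any setting, the 1.5-fold limit included. Few of all measured genes were called at that limit either. For negative control against knockout 123 of 12532 were higher and 339 lower. For mimic against negative control 359 of 12512 were higher and 210 lower, and for mimic against knockout 141 of 12536 were higher and 226 lower. The medians of the members lay between -0.02 and 0.07. These medians are too close to 0 for their sign to hold: that of negative control against knockout was -0.02 with TMM, 0.01 with total-count scaling and 0.02 on TPM, and that of mimic against negative control was 0.03 with TMM and 0.00, just below 0, with total-count scaling. Leaving out the 12 members with overlapping exons or fractional counts, an alternative chosen after seeing the data, gave 13 of 31 members called and a median of 0.86. An E2F motif was found in 60% of member promoters when the window was limited to 150 bases before to 50 after the listed start, against 12.3% of promoters of measured genes and 7.3% of all promoters. No paired analysis was possible because each group has 1 library. With counts as low as 20 for Orc1, a ratio is known to about 0.8 on the log2 scale on either side, and for Pcna to 0.08.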

Other observations

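Among the genes of the replication and E2F lists outside the 43 members, some stood further from 0 than any member when the mimic library was set against the negative control, and they are given here after their values were seen. Against untransfected cells this held for Top1, and not for Ccne1 or Dctd. Other genes of these lists also stood further from 0 there than any member. They ranged from Esco2 at -0.50 (-0.85 to -0.16) to Recql4 at 0.52 (0.02 to 1.04). The cyclin Ccne1, a partner of CDK2 at the entry to S phase, had 19.19, 23.84, 30.25 and 19.77 TPM in the wild-type, knockout, negative-control and mimic libraries. Its mimic log2 ratio was -0.62 (-0.82 to -0.42) against the negative control and -0.32 (-0.53 to -0.10) against untransfected cells, while Ccne2 was at 0.06 (-0.18 to 0.29) and -0.13 (-0.37 to 0.10). The topoisomerase Top1, which relieves torsion ahead of the fork, had 60.08, 64.54, 71.26 and 50.24 TPM, with ratios of -0.51 (-0.60 to -0.43) and -0.40 (-0.50 to -0.31). Dctd, a deaminase on the route to thymidine nucleotides, was higher, at 0.50 (0.20 to 0.82) and 0.34 (0.03 to 0.66). None of the 98 genes of these 2 lists reached 2-fold in either mimic comparison. Few of all measured genes did: 0.855% were higher and 0.352% lower against the negative control, and 0.263% and 0.471% against untransfected cells.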
